A study of Mus musculus with 18 samples.

Results

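Transcripts of 10 adhesion molecules that leukocytes meet on the vessel wall were followed through all 18 mouse RNA-seq libraries: the selectins Sele and Selp, the immunoglobulin family ligands Icam1, Icam2 and Vcam1, and the junctional molecules Pecam1, Esam, F11r, Jam2 and Cd99l2. They were chosen by name and are 10 of the 55401 genes in the endothelial table and 10 of the 22612 lines in the tumour cell table. The endothelial libraries came from female wild-type C57BL/6 mice, obtained at 5 to 6 weeks of age, and fall into 4 groups of 3. Blood vessel endothelial cells (BECs) were taken either from the normal mammary fat pad (BEC normal) or from EO771 tumours grown in that pad (BEC tumour). High endothelial cells (HECs) were taken from the inguinal lymph node of mice without tumours (HEC normal) or with them (HEC tumour), and the labels call the latter tissue lymph node metastases. The remaining 6 libraries are EO771 cells, a mouse breast cancer line kept in culture, given vehicle (DMSO in saline) or 100 nM of the lipid 12-HETE for 48 h, 3 libraries each. HECs were sorted as CD45-negative, CD31-high cells that stained for peripheral node addressin and BECs as those that did not. CD31 is the product of Pecam1, so the level of Pecam1 is tied to the sort. Since no tissue gave both HECs and BECs, cell type and tissue cannot be told apart, and the labels do not say which libraries, if any, share an animal, so p-values measure the spread between these libraries only.

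Leukocytes leave the blood in steps. E-selectin and P-selectin, the products of Sele and Selp, bind sugars on passing leukocytes and let them roll along the wall. ICAM1, ICAM2 and VCAM1 are then gripped by leukocyte integrins and hold the cell fast, and PECAM1, ESAM, the junctional adhesion molecules JAM-A (F11r) and JAM-B (Jam2) and CD99L2 sit at the borders between endothelial cells where leukocytes cross. P-selectin is stored in endothelial granules beside von Willebrand factor, and inflammatory cytokines acting through NF-kB are known to induce E-selectin, ICAM1 and VCAM1.

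Deposited values summed to 56.4 to 79.4 M per endothelial library and 17.3 to 18.6 M per EO771 library, and levels below are DESeq2 normalised counts. A difference was called when its adjusted p (DESeq2 Wald test, two-sided, Benjamini-Hochberg over all genes of the fit) was under 0.05 and its log2 fold change exceeded 1 in size. All 9 endothelial markers were above 3 deposited units in every endothelial library. The high endothelial marker Glycam1 was at 0 in all BEC libraries and between 39129 and 71579 normalised counts in HEC libraries. Chst4 was also at 0 in all BEC libraries, but Chst2 was at 0 in every HEC library and Ackr1 and Madcam1 did not exceed 4.93 and 16.6 there. The 8 high endothelial markers summed to 975 to 1327 CPM in HEC normal and 2221 to 3054 in HEC tumour. In BEC normal they summed to 25.3 to 28.5 and in BEC tumour to 9.23 to 9.75. Of 5 tested, 3 were called higher and 1 lower in HECs than in BECs, without and with tumours. Over all genes 17.2% were called higher and 15.2% lower without tumours, and 11.3% and 10.8% with them. Glycam1 passed the filter on mean counts only through HECs. BEC tumour libraries differed from BEC normal in markers of other cells: the 10 leukocyte markers summed to 1454 to 1938 CPM (counts scaled to a library total of 1 M) against 107 to 128, led by Cd68, and the 10 fibroblast and pericyte markers to 83.7 to 116 against 830.1 to 840.4 (18.4 to 34.3 in HECs). In HEC normal and HEC tumour the leukocyte sums were 484 to 509 and 356 to 374 CPM, again nearly all Cd68, with the T cell genes Cd3e and Cd3d at 0. The 5 epithelial markers summed to 74.1 CPM in BEC tumour replicate 3 and to at most 8.82 in any other endothelial library. Platelet markers, read because platelets carry P-selectin and PECAM1, summed to 12.7 to 32.3 CPM in the endothelial libraries. Lymphatic endothelial markers summed to 73.5 to 279 CPM, with the smallest sums in BEC tumour. These sums mainly follow Lyve1, at 203 CPM in BEC normal and 50.5 in BEC tumour, and do not stand for the whole list. Of its 6 genes, 3 rose and 2 fell by the calling rule with tumour in BECs (median log2 fold change 3.40). Mmrn1 and Ccl21a were at 0 in BEC normal, whereas all 6 exceeded 3 deposited units in every BEC tumour library. In bulk libraries, fewer cells of a type and less RNA per cell cannot be told apart, and the part that these other cells had in the differences below was not tested.

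Sele and Selp lie close together on chromosome 1 of GRCm38, Sele (ENSMUSG00000026582) at chr1:164048234-164057677 and Selp (ENSMUSG00000026580) at chr1:164115264-164150026. F11r (ENSMUSG00000038235) is on the same chromosome at chr1:171437535-171464603. Icam2 (ENSMUSG00000001029, chr11:106377656-106388075) and Pecam1 (ENSMUSG00000020717, chr11:106654217-106750628) are near neighbours on chromosome 11, both on the minus strand. Icam1 (ENSMUSG00000037405, chr9:21015985-21028817) and Esam (ENSMUSG00000001946, chr9:37528078-37538319) lie on chromosome 9. Vcam1 (ENSMUSG00000027962) is at chr3:116109949-116129688, Jam2 (ENSMUSG00000053062) at chr16:84774123-84825928 and Cd99l2 (ENSMUSG00000035776) at chrX:71420060-71492849. Exons of Icam1 and Selp overlap genes of the opposite strand over 11.7% and 14.1% of their length, and those of Vcam1 and Cd99l2 over less than 1%. The sources do not say whether reads were counted by strand, so a part of the values of Icam1 and Selp could belong to those genes.

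The start regions of Icam1, Sele and Selp are shown because these are cytokine-induced or granule-stored members whose levels differed between groups. Each is the 250 bases before the RefSeq start on GRCm38.p6, plus strand, and capitals mark matches to motifs of NF-kB (the core, GGG and CC with any 5 bases between them, or the palindrome GGAANTTCC, on either strand).
Icam1, chr9:21015690-21015939: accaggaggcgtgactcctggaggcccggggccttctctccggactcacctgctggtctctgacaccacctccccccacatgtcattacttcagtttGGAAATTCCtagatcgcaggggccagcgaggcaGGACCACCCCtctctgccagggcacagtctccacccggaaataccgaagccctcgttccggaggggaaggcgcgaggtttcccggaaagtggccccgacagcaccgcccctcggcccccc
Sele, chr1:164047984-164048233: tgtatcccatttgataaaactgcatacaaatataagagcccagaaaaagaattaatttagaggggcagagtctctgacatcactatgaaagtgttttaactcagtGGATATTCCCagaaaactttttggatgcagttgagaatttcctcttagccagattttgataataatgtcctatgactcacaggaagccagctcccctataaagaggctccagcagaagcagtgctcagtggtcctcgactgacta
Selp, chr1:164115014-164115263: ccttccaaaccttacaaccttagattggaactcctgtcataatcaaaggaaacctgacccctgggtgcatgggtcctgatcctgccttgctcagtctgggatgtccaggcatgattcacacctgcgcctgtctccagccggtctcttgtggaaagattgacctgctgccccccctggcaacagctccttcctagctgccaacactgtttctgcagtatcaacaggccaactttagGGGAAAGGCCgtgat
Icam1 holds the palindrome GGAAATTCC 153 to 145 bases before its start, and 0.813% of 32851 RefSeq windows of this length hold such a match. The core was found in 4 of the 5 members with a window (Sele, Selp, F11r and Icam1, and not Cd99l2) and in 45.8% of all windows, which makes it a common match. The match of Sele, GGATATTCCC, 145 to 136 bases before the start on the minus strand, overlaps a match to the STAT motif TTCNNNGAA, which Icam1 holds too and 7.02% of windows hold. The AP-1 motif TGANTCA was found in Sele, Selp and F11r (6.75% of windows) and TATAAA only in Sele among the 5 (12.4% of windows). These are matches of letters and not measured binding.

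Per kb of exon, the scale on which levels of different genes can be compared, Pecam1 was the most abundant member in BEC normal (9306 normalised counts per kb), HEC normal (8339) and HEC tumour (7769.6), and F11r in BEC tumour (8174). At the lower end stood Icam1 in BEC normal (79.6 per kb) and Jam2 in the other 3 groups. Jam2 had 104 per kb in BEC tumour but only 2.44 in HEC normal and 2.85 in HEC tumour, at percentiles 7.23 and 6.71 of the genes tested. The other 9 members were expressed in all 4 endothelial groups, at percentiles from 36.3 to 97.8 of the genes tested.

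**Figure D1:**
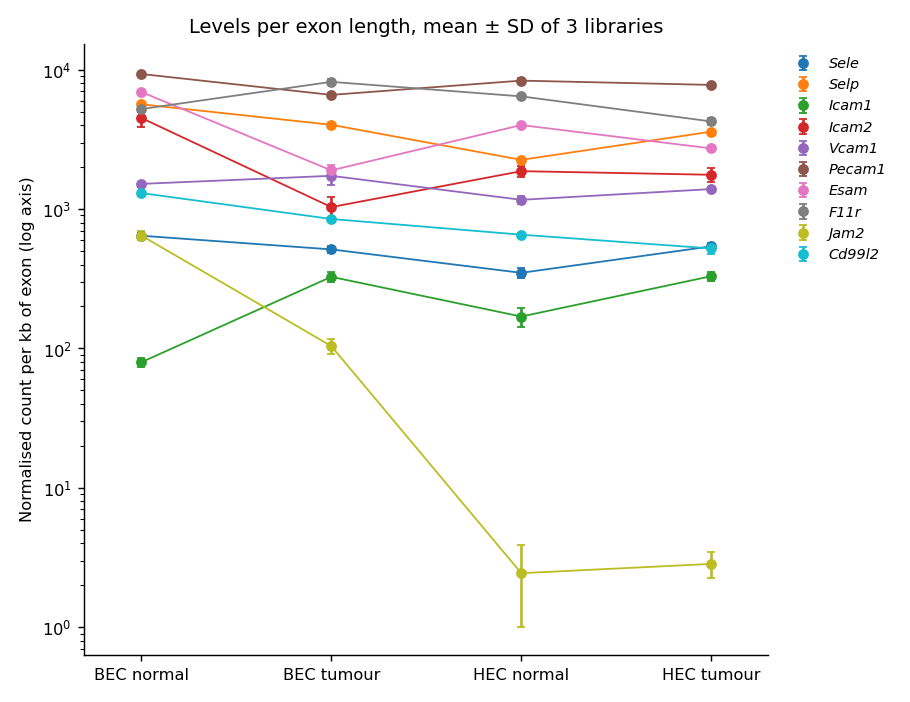
Mean normalised count per kb of exon (log axis) of the 10 members in the 4 endothelial groups, with SD over 3 libraries; lines join the groups of one gene and are no time course. Jam2 drops from 646 per kb in BEC normal to 2.44 in HEC normal, while Pecam1 stays between 6590 and 9306.

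The selectins were lower in HECs than in BECs without tumours, and with tumours the gap was smaller. In BECs Selp had 24654, 24862 and 25203 normalised counts without tumours and 18304, 17591 and 17361 with them. In HECs it had 9934, 10291 and 9608 without and 16148, 15565 and 15817 with tumours. No library of one group reached into another group, and HEC normal was lowest. Without tumours Selp was thus 2.50-fold lower in HECs than in BECs (log2 fold change −1.32 ± 0.04, SE, adjusted p = 3.37e-222 by DESeq2), which was called. It differed by −0.49 ± 0.04 between BEC tumour and BEC normal and by 0.67 ± 0.04 between HEC tumour and HEC normal, both under a 2-fold change though with adjusted p-values of 1.76e-31 and 3.83e-56 (DESeq2). With tumours the gap between HECs and BECs was −0.16 ± 0.04.

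Sele, which stood at 644 per kb in BEC normal against 5644 for Selp, was likewise highest in BEC normal and lowest in HEC normal. BEC libraries had 1978, 1764 and 1880.3 normalised counts without tumours and 1569, 1498 and 1418 with them, and HEC libraries had 1018, 937 and 1090.3 without and 1669, 1475 and 1573 with them. HEC normal lay below every other group, and the libraries of BEC tumour and HEC tumour overlapped. The log2 fold change of Sele was −0.88 ± 0.09 in HEC normal against BEC normal, 0.63 ± 0.09 in HEC tumour against HEC normal and −0.33 ± 0.09 in BEC tumour against BEC normal. None of these reached a 2-fold change, and in HEC tumour against BEC tumour the difference of 0.07 (95% interval −0.11 to 0.25, adjusted p = 0.528 by DESeq2) was not detectable. The interaction, which is the tumour change of HECs minus that of BECs, was 1.16 ± 0.06 for Selp, which was called, and 0.96 ± 0.13 for Sele, which was just under the 2-fold limit with an adjusted p of 1.93e-12 (DESeq2).

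**Figure D2:**
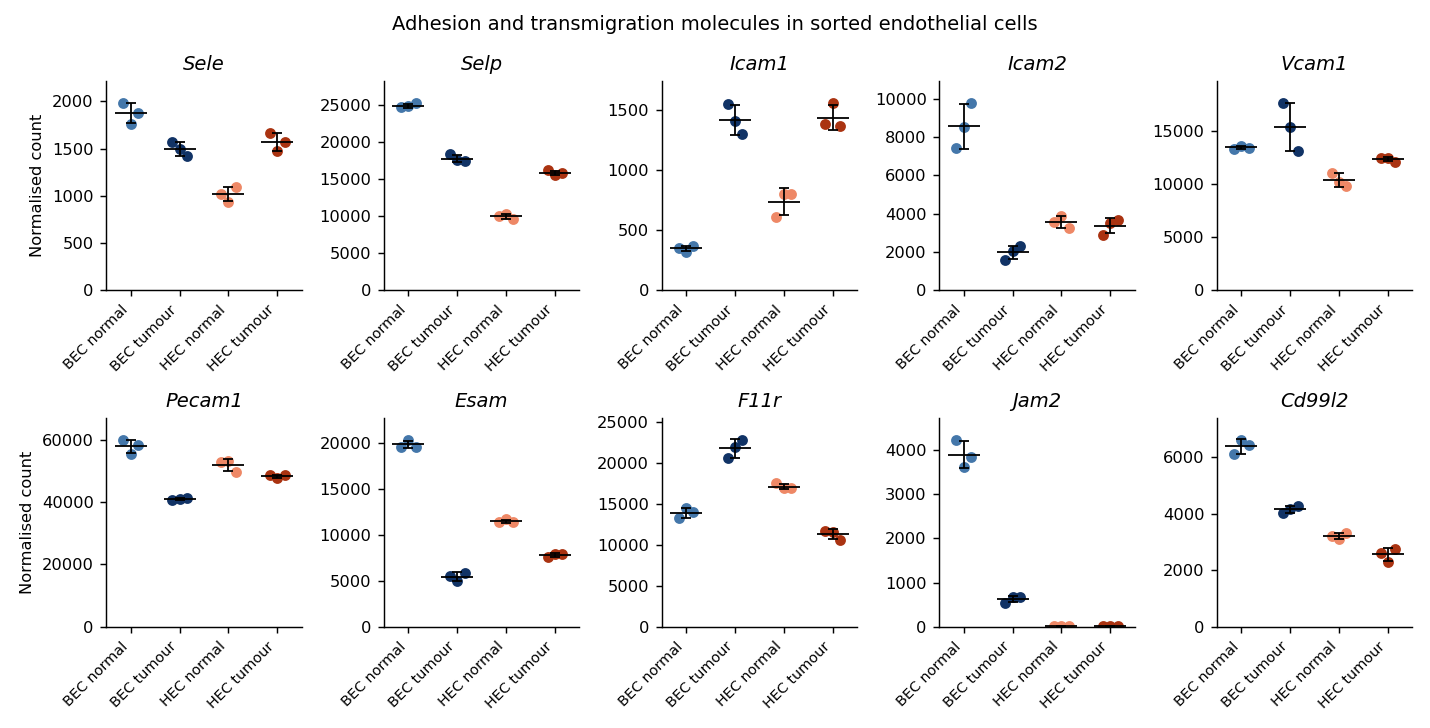
Normalised counts (linear axes from 0) of each member in the 12 endothelial libraries; points are libraries, and black bars give the mean and SD of the 3 libraries of a group. Sele and Selp are lowest in HEC normal, Icam1 is lowest in BEC normal, and Jam2 is close to 0 in both HEC groups.

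Of the integrin ligands, Icam1 was higher with tumours in both cell types, Icam2 fell with tumours in BECs and was not called in HECs, and Vcam1 was called in no endothelial comparison. Icam1, the ligand of LFA-1 and Mac-1, had 350.1, 321 and 369.8 normalised counts in BEC normal and 1554, 1409 and 1307 in BEC tumour. In HEC normal it had 608, 804 and 804, and in HEC tumour 1386, 1559 and 1370.3. BEC normal lay lowest and HEC normal between it and the tumour groups, which overlapped each other. Icam1 rose 4.10-fold in BEC tumour over BEC normal (log2 fold change 2.03 ± 0.14, adjusted p = 6.81e-46 by DESeq2) and stood 2.13-fold higher in HEC normal (1.09 ± 0.14, adjusted p = 1.12e-13 by DESeq2). Between HEC tumour and HEC normal it differed by 0.96 ± 0.14 (adjusted p = 4.08e-11 by DESeq2), just short of a 2-fold change, and the difference passed that limit without HEC normal replicate 2 (1.02) or replicate 3 (1.02). With tumours HECs and BECs differed by 0.02, with a 95% interval from −0.25 to 0.28. The interaction of −1.07 ± 0.20 was called, and the 2-fold size of it and of the HEC normal difference was not itself shown, since a test against a log2 fold change of 1 gave an adjusted p of 1 for both.

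Icam2, which resting endothelium and platelets carry and which LFA-1 also binds, went the other way. BEC libraries had 7420.0, 8546 and 9764 normalised counts without tumours and 1584, 2039 and 2276 with them, against 3562, 3891 and 3225 in HECs without and 2902, 3518 and 3639 with tumours. BEC normal stood above and BEC tumour below all HEC libraries, and the HEC groups overlapped. Icam2 fell by 2.12 ± 0.16 on the log2 scale in BEC tumour (4.36-fold, adjusted p = 3.68e-41 by DESeq2), while the difference in HECs was −0.09 (95% interval −0.39 to 0.22). HECs therefore had 2.41-fold less Icam2 than BECs without tumours (−1.27 ± 0.15) and 1.71-fold more with them (0.77 ± 0.16, below a 2-fold change). That the difference without tumours exceeds 2-fold was not shown (adjusted p = 0.358 by DESeq2 for more than 1 in size). The interaction was 2.04 ± 0.22 (adjusted p = 2.75e-19 by DESeq2).

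Vcam1, the ligand of the integrin VLA-4, had 13306, 13568 and 13435 normalised counts in BEC normal and a wider 17593, 15401 and 13078 in BEC tumour. It had 11062, 10153 and 9778 in HEC normal and 12448, 12451 and 12102 in HEC tumour. The BEC groups overlapped and both HEC groups lay below BEC normal. The differences were 0.19 ± 0.10 with tumour in BECs (adjusted p = 0.0885 by DESeq2), 0.26 ± 0.10 with tumour in HECs, −0.38 ± 0.10 in HEC normal against BEC normal and −0.32 ± 0.10 in HEC tumour against BEC tumour. The interaction was 0.06, with a 95% interval from −0.21 to 0.34, the smallest in size among the 10 members.

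Among the junctional molecules Jam2 showed the widest differences. Its normalised counts in BECs were 4230.3, 3621 and 3858 without tumours and 542, 673 and 673 with them, and in HECs 17.2, 5.09 and 22.0 without and 13.9, 16.8 and 21.0 with them. The HEC libraries lay far below both BEC groups and overlapped each other. Without tumours Jam2 was 262-fold lower in HECs (log2 fold change −8.03 ± 0.27, adjusted p = 2.06e-193 by DESeq2) and with tumours 36.5-fold lower (−5.19 ± 0.27). In BECs it fell 6.20-fold with tumour (−2.63 ± 0.16, adjusted p = 6.8e-56 by DESeq2). Its HEC values rest on 5 to 23 deposited units a library, and low endothelial values rise in steps of about 3.7 units, so the size of the HEC difference is coarse and the change of 0.21 with tumour in HECs (95% interval −0.46 to 0.88) turned to −0.19 without HEC normal replicate 2. The interaction of 2.84 ± 0.38 was called and ranged from 2.44 to 3.25 over the alternatives tried.

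Esam, a tight junction molecule of endothelium and platelets, fell in tumour BECs and was lower, by less than 2-fold, in tumour HECs. In BECs it had 19600.2, 20302 and 19589.5 normalised counts without tumours and 5487, 4943 and 5867 with them, and in HECs 11361, 11682 and 11395 without and 7596, 7915 and 7893 with them. All 4 groups stood apart from each other. With tumour Esam fell 3.65-fold in BECs (log2 fold change −1.87 ± 0.06, adjusted p = 8.82e-183 by DESeq2), and it differed by −0.56 ± 0.06 in HECs. HECs had less Esam than BECs without tumours (−0.79 ± 0.06) and more with them (0.52 ± 0.06), neither past 2-fold. The interaction was 1.31 ± 0.09 and was called.

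F11r encodes JAM-A, which epithelium, platelets and leukocytes also carry, and its differences with tumour had opposite signs in the cell types. Fat pad BECs had 13229, 14447 and 13958 normalised counts and tumour BECs 20587, 21930.3 and 22786, against 17490.3, 16958 and 16913 for HECs without and 11741, 11570.3 and 10636 for HECs with tumours. No groups overlapped, BEC tumour was highest and HEC tumour lowest. The log2 fold change with tumour was 0.65 ± 0.06 in BECs and −0.60 ± 0.06 in HECs, each under 2-fold, with adjusted p-values of 8.93e-25 and 2.29e-20 (DESeq2). Their difference, the interaction of −1.25 ± 0.09, was called (adjusted p = 1.8e-44 by DESeq2). HECs had more F11r than BECs without tumours (0.30 ± 0.06) and less with them (−0.94 ± 0.06). In BEC tumour replicate 3, the library with the high epithelial sum, F11r was highest of its group, and without that library the change in BECs was 0.62 and the interaction −1.22.

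Pecam1 and Cd99l2, which act one after the other as leukocytes pass the junction, were called in no endothelial comparison. In BECs Pecam1 ranged from 55640.2 to 59954 normalised counts without tumours and from 40818 to 41360.5 with them, and in HECs from 49576 to 53365 without and from 47860.2 to 48657 with them. These groups did not overlap, and the largest difference was −0.50 ± 0.04 with tumour in BECs, while HEC tumour differed from HEC normal by −0.10 ± 0.04 (adjusted p = 0.0564 by DESeq2). Cd99l2 had 6099, 6607 and 6451 in normal and 4022, 4177 and 4281 in tumour BECs, and 3199, 3103 and 3325 in normal and 2597, 2305 and 2768 in tumour HECs. Its groups stood apart, in that order from high to low. The difference of −0.99 ± 0.08 between HEC normal and BEC normal was at the 2-fold limit (1.99-fold) and passed it without BEC normal replicate 1 or HEC normal replicate 3. With tumour Cd99l2 differed by −0.62 ± 0.08 in BECs and by −0.33 ± 0.08 in HECs, and HECs had less than BECs with tumours too (−0.70 ± 0.08).

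**Figure D3:**
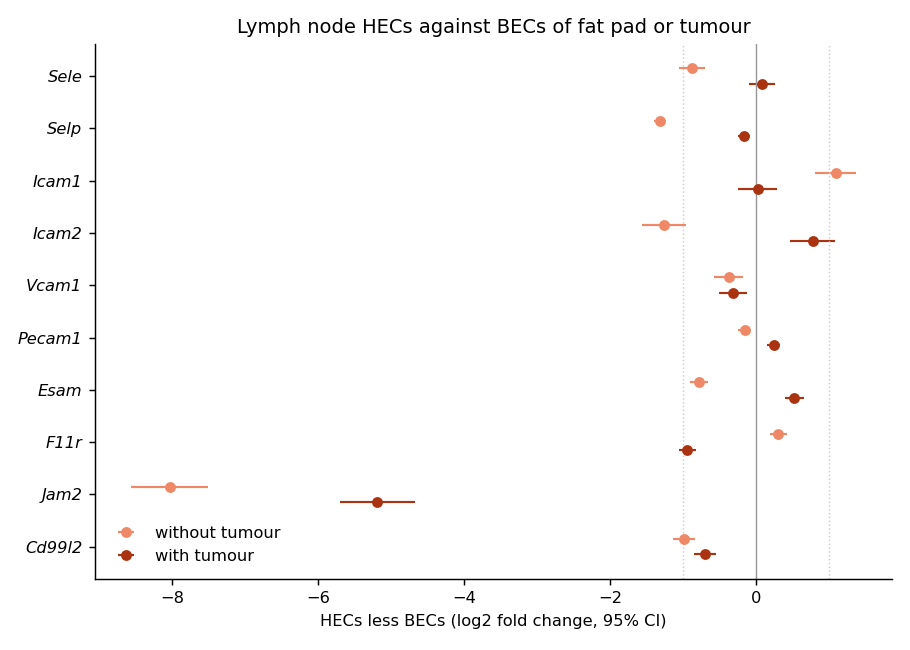
Log2 fold change of HECs less BECs with its 95% confidence interval for each member, without tumours (light, HEC normal against BEC normal) and with tumours (dark, HEC tumour against BEC tumour); dotted lines mark a 2-fold difference. Jam2 lies at −8.03 and −5.19, and the estimates of Icam2, Esam, Pecam1 and Sele lie below 0 without and above 0 with tumours, those of F11r the reverse.

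Read by comparison, the first question was how these molecules set lymph node HECs apart from fat pad BECs. In HEC normal against BEC normal, 1 of the 10 members was called higher (Icam1) and 3 lower (Icam2, Selp and Jam2), where 17.2% of all 18511 genes tested were called higher and 15.2% lower, 32.4% in all. The median log2 fold change was −0.84 over the members and 0.00 over all genes. All 10 members separated the groups without overlap, as 66.7% of genes did. In HEC tumour against BEC tumour only Jam2 was called, lower in HECs, against 22.1% of all genes called (10.8% lower), and the median was −0.07. There 8 members did not overlap, and 62.7% of all genes did not. Of the leukocyte markers, 7 of 8 tested were called lower in HEC tumour than in BEC tumour. Cd3e, Cd3d and Ms4a1 had no counts in any BEC normal or HEC library, so those of them tested passed the filter only through BEC tumour.

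The next question was what changes when a tumour is present. In BECs, 1 member was called higher with tumour (Icam1) and 3 lower (Icam2, Esam and Jam2), where 12.5% and 10.9% of all genes were called higher and lower, 23.4% in all. The median log2 fold change of the members was −0.49, and 9 of 10 did not overlap (59.5% of all genes). In the same comparison all 8 leukocyte markers tested were called higher, 6 of 8 fibroblast and pericyte markers lower and 3 of 9 endothelial markers lower, and their part in the member differences was not tested. Those of Cd3e, Cd3d and Ms4a1 that were tested passed the filter only through BEC tumour. In HECs no member was called by DESeq2 in either direction against 7.89% of all genes (4.66% higher and 3.24% lower), and none was called by edgeR. By DESeq2 7 members had an adjusted p under 0.05, as did 3142 genes higher and 3430 lower of 18511 tested. An unadjusted p under 0.05 was found for 8 members, with no share over all genes taken. The groups did not overlap for 8 members (48.8% of all genes). The member differences in HECs ran from −0.60 for F11r to 0.96 for Icam1, with a median of 0.06. By the interaction, 6 of 10 members were called, 4 in the positive direction (Selp, Icam2, Esam and Jam2) and 2 in the negative (Icam1 and F11r), where 11.3% and 12.2% of all genes were called. For Icam2, Esam and Jam2 the interaction came with a fall in BECs, for F11r and Selp with differences of opposite sign, and for Icam1 with differences of the same sign, the larger in BECs.

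**Figure D4:**
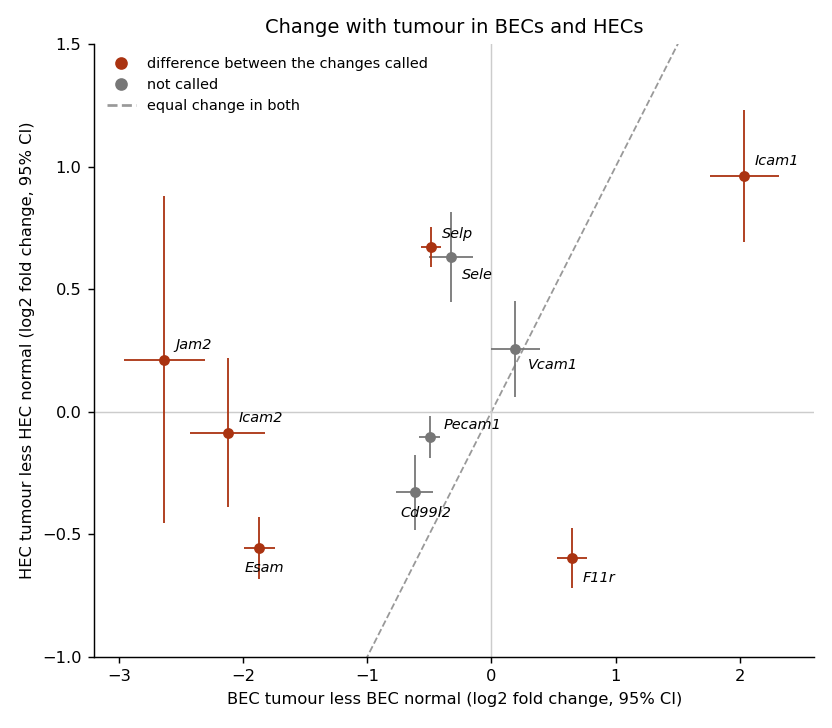
Log2 fold change with tumour of each member in BECs (x axis) and in HECs (y axis), with 95% confidence intervals; red points are members whose change was called different between the cell types, and the dashed line marks equal change (the axes have different scales). Icam2, Esam and Jam2 lie far to the left of the line, and F11r and Selp lie in quadrants of opposite sign.

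Other adhesion and transmigration genes of endothelium were read beside the members, from a list of 24 of which 21 were tested. In HEC normal against BEC normal 2 were called higher and 6 lower, where 17.2% and 15.2% of all genes were. Among the higher was Glycam1, at 0 in all BEC libraries, and among the lower Thy1, which averaged 1.32 in HEC tumour. Each passed the filter on mean counts only through the cell type where it was high. With tumour in BECs 6 of the 21 were called, all of them lower, where 10.9% of all genes were called lower. Mcam, which encodes the endothelial adhesion molecule CD146, averaged 30229.8 ± 1593 normalised counts in normal BECs and 4159 ± 132 in tumour BECs, against 2843 ± 116 and 3872 ± 188 in normal and tumour HECs (SD, n = 3), and fell by 2.86 ± 0.06 on the log2 scale with tumour in BECs. Alcam (CD166) went from 3516 ± 214 in BEC normal to 810.5 ± 158 in BEC tumour and was 598 ± 100.4 in HEC normal. Cxadr, a junctional relative of the JAM family, fell by 2.78 ± 0.36 in BECs with tumour. Thy1, a ligand of Mac-1, had 65.9 to 75.2 in BEC normal and was at 0 in HEC normal. Stab1, a scavenger receptor also called CLEVER-1, differed by −1.38 ± 0.07 between HEC tumour and BEC tumour. Pvr, the ligand of CD226 and TIGIT, was higher in normal HECs by 2.37-fold.

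With tumour in HECs, 1 gene of this list was called: Aoc3, which encodes vascular adhesion protein 1, rose 3.48-fold from a low level (23.6 ± 12.7 to 82.4 ± 22.6 normalised counts, adjusted p = 0.00335 by DESeq2). Over all genes 4.66% were called higher there. The interaction was called positive for 5 genes, with Mcam (3.31 ± 0.09) and Alcam (2.29 ± 0.23) the highest, and negative for 2, Pvr (−1.15 ± 0.08) and Cd34 (−1.08 ± 0.08). Over all genes 11.3% were called positive and 12.2% negative. The median interaction of the list was 0.71, close to the 0.68 of the members, and that of all genes was 0.00. The 9 general endothelial markers, which share Cdh5 and Emcn with this list, had a median of 0.70. The shift was therefore not particular to adhesion genes.

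Von Willebrand factor, which shares its granules with P-selectin, moved with the groups. In BECs Vwf averaged 1029 ± 185 normalised counts without tumours and 259.8 ± 26.5 with them, and in HECs 181 ± 20.7 and 426 ± 39.8 (SD, n = 3). It fell by 1.99 ± 0.18 on the log2 scale with tumour in BECs and rose by 1.24 ± 0.19 in HECs, with an interaction of 3.22 ± 0.26, and was 5.70-fold lower in HEC normal than in BEC normal. Of the other 10 genes of the list of cytoplasmic partners and storage, only Afdn, which encodes the junctional scaffold afadin, was called in BECs with tumour (1.08 ± 0.11, interaction −1.10 ± 0.15), and only Ezr, which encodes ezrin, was called between HEC tumour and BEC tumour (1.06 ± 0.04). Over all genes 23.4% were called with tumour in BECs, 7.89% in HECs and 23.4% by the interaction. Between HECs and BECs 32.4% were called without and 22.1% with tumours.

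The cytokine receptors and NF-kB genes that are known to act upstream of selectins, ICAM1 and VCAM1 form a list of 16, all tested in both tables. With tumour, 1 was called lower in BECs (10.9% of all genes) and 2 were called higher in HECs (4.66% of all genes). Tnfaip3, the NF-kB feedback inhibitor A20, averaged 2921 ± 356 normalised counts in normal and 1094 ± 381 in tumour BECs, and 574.5 ± 300.4 in normal and 1504 ± 86.8 in tumour HECs (SD, n = 3). It fell by 1.42 ± 0.32 with tumour in BECs and rose by 1.39 ± 0.32 in HECs, so its direction in BECs was opposite to that of Icam1. Ikbkg, a subunit of the IKK complex, rose by 1.13 ± 0.21 in HECs. In HEC normal against BEC normal 3 genes were called higher, among them Il13ra1 (1.68 ± 0.09) and Relb (1.08 ± 0.13), and 2 lower, Tnfaip3 (−2.35 ± 0.32) and Ifngr1 (−1.14 ± 0.25). Over all genes 17.2% were called higher and 15.2% lower. Between HEC tumour and BEC tumour only Il1r1 was called (−1.09 ± 0.10), where 22.1% of all genes were. The interaction was called for 3 of the 16, Tnfaip3 (2.81 ± 0.45), Il13ra1 (−1.70 ± 0.12) and Nfkb2 (−1.18 ± 0.08), where 23.4% of all genes were.

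Transcripts of the leukocyte receptors that bind the members were also present. With tumour in BECs 5 of the 9 were called higher and 1 lower, where 12.5% and 10.9% of all genes were. Itgam, the alpha chain of Mac-1, averaged 16.0 normalised counts in BEC normal and 1223 in BEC tumour, Spn (CD43) rose by 4.81 ± 0.17 on the log2 scale, and Itgb7 fell by 2.67 ± 0.14. In HECs with tumour only Itgal was called (1.58 ± 0.49), at a mean of 33.8 normalised counts, where 4.66% of all genes were called higher. In HEC tumour against BEC tumour 5 were called lower (10.8% of all genes), with log2 fold changes of −6.48 ± 0.79 for Itgam and −4.26 ± 0.42 for Itgal, and Itgb7 was called higher (2.82-fold). Between HEC normal and BEC normal 2 were called higher and 4 lower (17.2% and 15.2% of all genes), with a median log2 fold change of −1.02 over the list. Spn was higher by 4.39 ± 0.17 and Selplg, the ligand of P-selectin, by 1.18 ± 0.47, while Itgal (−1.78 ± 0.49) was lower, from a mean of 38.5 in BEC normal. The interaction was called positive for Itgb7 (1.97 ± 0.19) and negative for 4 genes, with Itgam (−5.46 ± 1.15) and Spn (−4.95 ± 0.23) the lowest. Over all genes 11.3% were called positive and 12.2% negative. These differences in BEC tumour stand beside the leukocyte marker sums given above.

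For each member the gene with the most similar profile over the 12 endothelial libraries was found among 13290 genes, as the smallest root mean square difference between log2 values centred on their own means. Pecam1 was nearest to Grsf1 (0.05), Sele to Ddhd2 (0.07), F11r to Ephx1 (0.07), Selp to Trmt2a (0.08), Vcam1 to Jpt2 (0.09), Cd99l2 to Arl4c (0.09), Esam to Rap1gap (0.13), Icam2 to Gem (0.16), Icam1 to AC122818.4 (0.21) and Jam2 to Vcan (0.47). No member had another member as its nearest gene. The libraries of a group share their source, so these likenesses rest mainly on 4 group means and describe the profiles only.

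In EO771 cells the question was what 12-HETE does to the same transcripts in tumour cells. Sele, Selp, Pecam1 and Jam2 were low there, with means of at most 38.0 normalised counts, whereas F11r, Esam, Icam1, Vcam1, Cd99l2 and Icam2 were expressed. Of the 10 members 8 passed the filter, and 5 of these 8 were called, all of them lower with 12-HETE, where 7.79% of 11602 genes were called lower and 2.38% higher, 10.2% in all. Among the 5, Selp passed the filter only through its vehicle level, and its call was lost under most alternatives. The count of genes called higher rested on vehicle replicate 3, being 276 with it and 511 without it. The groups did not overlap for 6 of the 8 and for 60.7% of all genes.

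Vcam1 had 1374, 1974 and 1494 normalised counts with vehicle and 565, 536 and 519 with 12-HETE, and Icam1 1455, 1901 and 1461 with vehicle and 690.1, 715 and 723 with 12-HETE. Both were lower in all 3 treated libraries than in any vehicle library, and vehicle replicate 2 was highest for each. Vcam1 fell 2.99-fold (log2 fold change −1.58 ± 0.16, adjusted p = 1.74e-22 by DESeq2) and Icam1 2.26-fold (−1.18 ± 0.14, adjusted p = 1.72e-16 by DESeq2). Icam2 had 179, 364 and 175 with vehicle and 117, 82.8 and 97.4 with 12-HETE, a fall of 1.27 ± 0.31 on the log2 scale. Its groups did not overlap, but the difference was −0.85, under 2-fold, without vehicle replicate 2. Pecam1 had 29.7, 36.3 and 48.1 against 10.3, 12.8 and 9.84 (−1.79 ± 0.44, adjusted p = 0.000246 by DESeq2), with no overlap at a low level. Selp had 19.8, 55.4 and 11.3 against 8.22, 6.90 and 12.8, and its groups overlapped. Its change of −1.63 ± 0.67 (adjusted p = 0.0344 by DESeq2) lost its call under 8 of 14 alternatives, among them edgeR (adjusted p = 0.0621) and leaving out any one library other than vehicle replicate 3. Without vehicle replicate 2 it was −0.75 (adjusted p = 0.347). Its mean with 12-HETE was 9.30, under the filter of 10, so it was tested only through its level with vehicle.

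F11r, at 4464, 5015 and 4236 normalised counts with vehicle and 3811, 3816 and 3616 with 12-HETE, was lower without overlap but by less than 2-fold (−0.29 ± 0.10, adjusted p = 0.00945 by DESeq2). Esam had 1395, 1774 and 1051 against 1269, 1202 and 1151, and its groups overlapped (−0.22, 95% interval −0.58 to 0.14). Cd99l2 had 511, 499 and 469 against 539, 518 and 583 (0.15, 95% interval −0.08 to 0.37, adjusted p = 0.283 by DESeq2). The remaining members were too low to test: Sele had 11.9, 8.60 and 23.5 with vehicle and 3.08, 2.96 and 1.97 with 12-HETE, and Jam2 at most 5.12 in any library. Fibroblast markers, mainly Dcn, summed to 391 to 615 CPM with vehicle and 998 to 1038 with 12-HETE, and epithelial markers to 2865 to 3783 and 1928 to 1983. Their part in these differences was not tested.

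**Figure D5:**
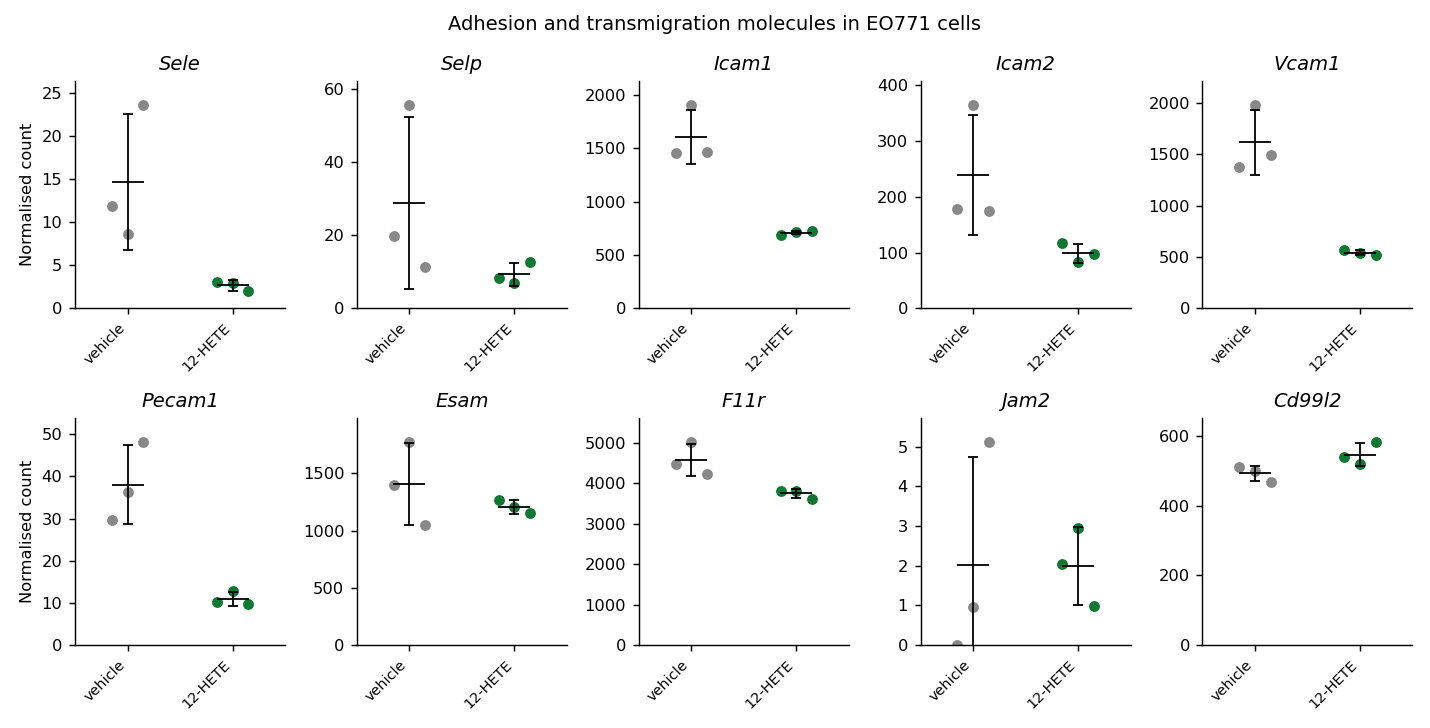
Normalised counts (linear axes from 0) of each member in the 6 EO771 libraries; points are libraries, and black bars give the mean and SD of the 3 libraries of a group. Icam1 and Vcam1 with 12-HETE lie below every vehicle library, and for Selp and Icam2 one vehicle library stands well above the other two.

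Among the NF-kB and cytokine receptor genes in EO771 cells, 3 of 16 were called, all of them lower, where 7.79% of all genes were called lower. They were Tnfaip3, from 1465 ± 188 to 195.8 ± 3.90 normalised counts (−2.90 ± 0.14), Relb, from 1964 ± 515 to 526 ± 12.2 (−1.90 ± 0.18), and Nfkb2 (−1.15 ± 0.17). The median of that list was −0.46. Of the other adhesion genes 15 were tested, with 1 called higher, Aoc3 (1.36 ± 0.44), and 1 lower, Madcam1, where 2.38% and 7.79% of all genes were. Madcam1 had 13.9 to 70.7 normalised counts with vehicle and 0.984 to 1.03 with 12-HETE. Its level with 12-HETE was under the filter on mean counts, so the gene was tested only through its level with vehicle. Of the cytoplasmic partners and storage genes only Vwf was called (−2.02 ± 0.55, from 43.2 ± 23.6 to 10.7 ± 2.74). Of the leukocyte counter-receptors 4 were tested and Itga4, the alpha chain of the receptor of VCAM1, was called higher (1.79 ± 0.45), at means of 10.6 with vehicle and 36.5 with 12-HETE.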

How the data were processed

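RNA was sequenced from 12 sorted endothelial samples and 6 EO771 cultures, in 6 groups of 3 libraries. The authors aligned the reads to GRCm38 and deposited, for the endothelial samples, a table of values per Ensembl gene that were used here as estimated counts, since their low values rise in steps of about 3.7 units. For EO771 the authors deposited whole-number read counts per gene symbol. Of 55401 endothelial and 22612 EO771 lines, 260 and 298 could not be matched to GENCODE M21 names, and 33 repeated EO771 symbols were left out of the lists. Division by the step gives 15.2 to 21.4 M per endothelial library, so a difference of 1 step is the finest that these values resolve.

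Each table was fitted on its own with DESeq2 1.42.0 in R 4.3.3 after rounding, with genes of mean count of at least 10 kept (18511 and 11602 genes), the group as the only term, and independent filtering and Cook's filter off. Fold changes are unshrunken, errors are SE unless SD is named, and intervals are 95% Wald intervals. All other ± values of group means are SD over 3 libraries. An exact permutation of 3 against 3 libraries cannot go below a two-sided p of 0.1, so p-values come from the model across genes. Errors cover replicate and counting error only, since reads carried no molecular identifiers. No pair of replicates agreed within counting noise, so none was merged. The chi-square per degree of freedom of a pair was 2.48 to 2.83 with 12-HETE, 17.5 to 49.4 with vehicle and 15.1 to 30.4 in the endothelial groups. The 12-HETE libraries were thus far closer to each other than the vehicle libraries. The model gives both EO771 groups a shared dispersion per gene, and the 12-HETE p-values rest on it.

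The 10 members were taken by Ensembl ID or symbol. The members and the other lists were chosen with earlier results of these data known. From each other list, the up to 2 called genes with the largest log2 fold change in each direction were named per comparison; Nfkb2 in EO771 cells and the leading marker genes were named after their values were seen. The values of 1 gene of the counter-receptor list are not reported here. Marker sums are over all genes of a list on CPM of the deposited values. Exon lengths and positions are from GENCODE M21, and start regions from RefSeq. Alternatives were edgeR 4.0.16 (quasi-likelihood), TMM factors, no filter, the DESeq2 filters on, adjusted p alone, a test against a log2 fold change of 1, a replicate block, each library left out, only the groups compared, division by the step and, chosen after seeing the data, scaling to total counts. The scripts were tested on simulated data.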

Additional observations from a re-analysis of the deposited data

Results flagged for a closer look

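The change with a tumour in HECs and in BECs was called different for 6 of 10 members by the interaction test in DESeq2, where 23.4% of all genes tested were called. On the log2 scale, HEC change minus BEC change was 2.84 for Jam2, 2.04 for Icam2, 1.31 for Esam and 1.16 for Selp, and −1.25 for F11r and −1.07 for Icam1. For Icam1 and Selp a Wald test of whether the difference exceeds 1 in size did not pass (adjusted p = 1 and 0.0601 by DESeq2). In BEC tumour against BEC normal, 8 of 8 leukocyte markers were called higher and 6 of 8 fibroblast and pericyte markers lower, and their part in these values was not tested. Those of the leukocyte markers Cd3e, Cd3d and Ms4a1 that were tested passed the filter only through BEC tumour.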

How the results depend on the processing

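Of 962 values of the 58 member fold changes under the alternatives, 902 kept direction and call, 16 lost a call, 36 gained one and 8, of at most 0.19 in size and all uncalled, changed sign. Icam1 in HEC tumour against BEC tumour was −0.0031 by edgeR, −0.0027 with TMM factors, −0.0047 with only the groups compared and −0.046 to 0.081 with a library left out. With a library left out, Icam2 (−0.16 to 0.0095) and Jam2 (−0.19 to 0.62) with tumour in HECs and the Vcam1 interaction (−0.044 to 0.17) also spanned 0. The cause was not tested. By adjusted p alone, 2 members were higher and 8 lower in HEC normal against BEC normal, 3 and 5 in HEC tumour against BEC tumour, 4 and 3 with tumour in HECs, and 2 and 7 with tumour in BECs, and 7 interactions were positive. When the Wald test asked for a log2 fold change above 1 in size, 0 members were higher and 2 lower in HEC normal against BEC normal (Icam1 and Icam2 lost), 3 interactions were positive (Selp lost) and 1 negative (Icam1 lost), and 1 member was lower with 12-HETE (Vcam1 kept, Icam1, Icam2, Selp and Pecam1 lost). Over all genes, calls higher and lower by the main rule, by adjusted p alone and by the test for more than 1 in size were 3179 and 2817, 5829 and 5919, and 1647 and 1726 in HEC normal against BEC normal. In HEC tumour against BEC tumour they were 2098 and 1990, 4818 and 5271, and 701 and 1010, with tumour in HECs 862 and 599, 3142 and 3430, and 75 and 107, and with tumour in BECs 2314 and 2010, 4921 and 5039, and 1105 and 992. For the interaction they were 2086 and 2253, 4263 and 4409, and 826 and 974, and for 12-HETE 276 and 904, 2637 and 2813, and 20 and 391. Without vehicle replicate 3 the main rule called 511 higher with 12-HETE in place of 276, and 945 lower. Icam1 passed 2-fold with tumour in HECs when counts were scaled to totals (1 member called), and leaving out a library gave 0 to 1. With 12-HETE the count of lower members was 3 to 5, and 3 without vehicle replicate 2, where Selp and Icam2 were lost. Selp lost its call under 8 of 14 alternatives: edgeR, the test for more than 1, the replicate block and 5 of 6 libraries left out. Libraries with the same number in different groups deviated together little (correlations of −0.0153 to 0.053 over 18 endothelial and 0.0254 to 0.154 over 3 EO771 pairs). Libraries with different numbers had correlations of −0.057 to 0.032 over 36 endothelial and −0.114 to 0.033 over 6 EO771 pairs. The medians for same and different numbers were 0.0092 and −0.0033 in the endothelial table and 0.0796 and −0.0399 in EO771. With so few pairs these values cannot settle whether the numbers pair the libraries. A replicate block left 4 lower with 12-HETE (Selp −1.37, adjusted p = 0.133 by DESeq2) and changed no other member call.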
